A study of Mus musculus with 6 samples.

Results

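The genes described here are those of the proteasome, taken as every gene whose symbol starts with Psm, a letter from a to g and a number. They are 49 of the 18193 genes that have at least 1 unshared probe set on the array, and 103 of its 45101 probe sets. By role they are 8 alpha and 8 beta subunits of the core particle, 3 subunits of the immunoproteasome, 6 ATPase and 11 other subunits of the regulatory particle, 7 assembly factors, 4 activators or inhibitors and 2 genes that share only the name. The last pair are Psmc3ip, which encodes a meiotic recombination factor, and Psme3ip1, which encodes a partner of the activator Psme3. Psmb11, a beta subunit of the thymus, lay under the intensity filter, and the other 48 genes were tested. Psme2 and Psme2b, which encode a subunit of the interferon-inducible activator and a close copy of it, share 1 probe set and are not among the 49 genes.

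RNA came from early erythroid progenitors sorted from mouse fetal livers at embryonic day 13.5, with 3 arrays labelled Eklf -/- and 3 labelled wild type, all given as strain C57BL/6. The labels number the fetal livers and do not say whether livers were pooled. Eklf (Klf1) is an erythroid transcription factor that binds CACCC motifs. The labels describe a line whose targeting clones came from a strain 129 library and were injected into C57BL/6 blastocysts, and the knockout is not stated to be limited to any cell type. Cells were sorted with 7AAD and antibodies to CD71 and Ter119, and the labels do not give the gates. The comparison asks how the transcripts of these progenitors differ when the factor is lost.

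The proteasome breaks down proteins that carry chains of ubiquitin. Its core particle is a barrel of alpha rings, which form the gate, around beta rings, of which the subunits Psmb5, Psmb6 and Psmb7 cut the substrate. A regulatory particle caps the barrel, recognises ubiquitin, unfolds the substrate with a ring of ATPases and feeds it in. In lymphoid and myeloid cells, and in other cells after interferon gamma, the cutting subunits can be replaced by Psmb8, Psmb9 and Psmb10 to make the immunoproteasome, which is known for making peptides for MHC class I. Red cell precursors degrade many proteins through ubiquitin as they mature.

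Values are MAS5 signals, a measure of probe set brightness with 1 trimmed mean for all arrays, and differences are knockout minus wild type on the log2 scale. Median signals were 204 to 218 on the knockout arrays and 97.7 to 140 on the wild-type arrays. The median difference over all 12799 genes tested was 0.14. A gene was called at a limma adjusted p under 0.05 (Benjamini-Hochberg, over the whole table). Klf1 gave 3505, 1391 and 2545 on the knockout arrays and 2508, 2706 and 4030 on the wild-type arrays, so the groups overlapped (limma adjusted p = 0.347). This checks nothing about the labels, because the probe set may lie outside the deletion. Markers of other cells differed between the groups: 8 of 10 tested lymphoid markers were lower and 13 of 13 hepatocyte markers were higher on the knockout arrays. The 9 early erythroid markers summed to 30297 to 37527 on the knockout arrays and 30103 to 31386 on the wild-type arrays, but 5 were higher and 3 lower on the knockout arrays. Gata1 (3.71-fold) and Tal1 (3.21-fold), factors of erythroid genes, were among the higher, and Kit (3.32-fold) and Myb (4.13-fold), genes of early progenitors, among the lower. In bulk RNA, fewer cells of a type and less RNA per cell cannot be told apart.

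Most proteasome genes did not pass the test. Of the 48 tested genes 4 were higher on the knockout arrays, 10 were lower and 34 did not pass. The called share was 29.2% of the members, against 48.7% of all genes, and by direction all genes gave 27.9% higher and 20.8% lower. With all genes split by brightness into 4 equal groups, 39 members lay in the brightest, where 50.4% of genes were called, 15.1% higher and 35.3% lower. The median difference of the members was -0.20, and that of all genes of the brightest group was -0.25. The knockout values lay all above the wild-type values for 5 members and all below them for 17, and 26 members overlapped. Among all genes 59.3% did not overlap, 34.1% with the knockout above and 25.2% with it below. Without wild-type array 3 the count of higher members was 7, with Psmb1, Psmd2 and Psmd4 added. That fit called 46.9% of all genes.

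**Figure D1:**
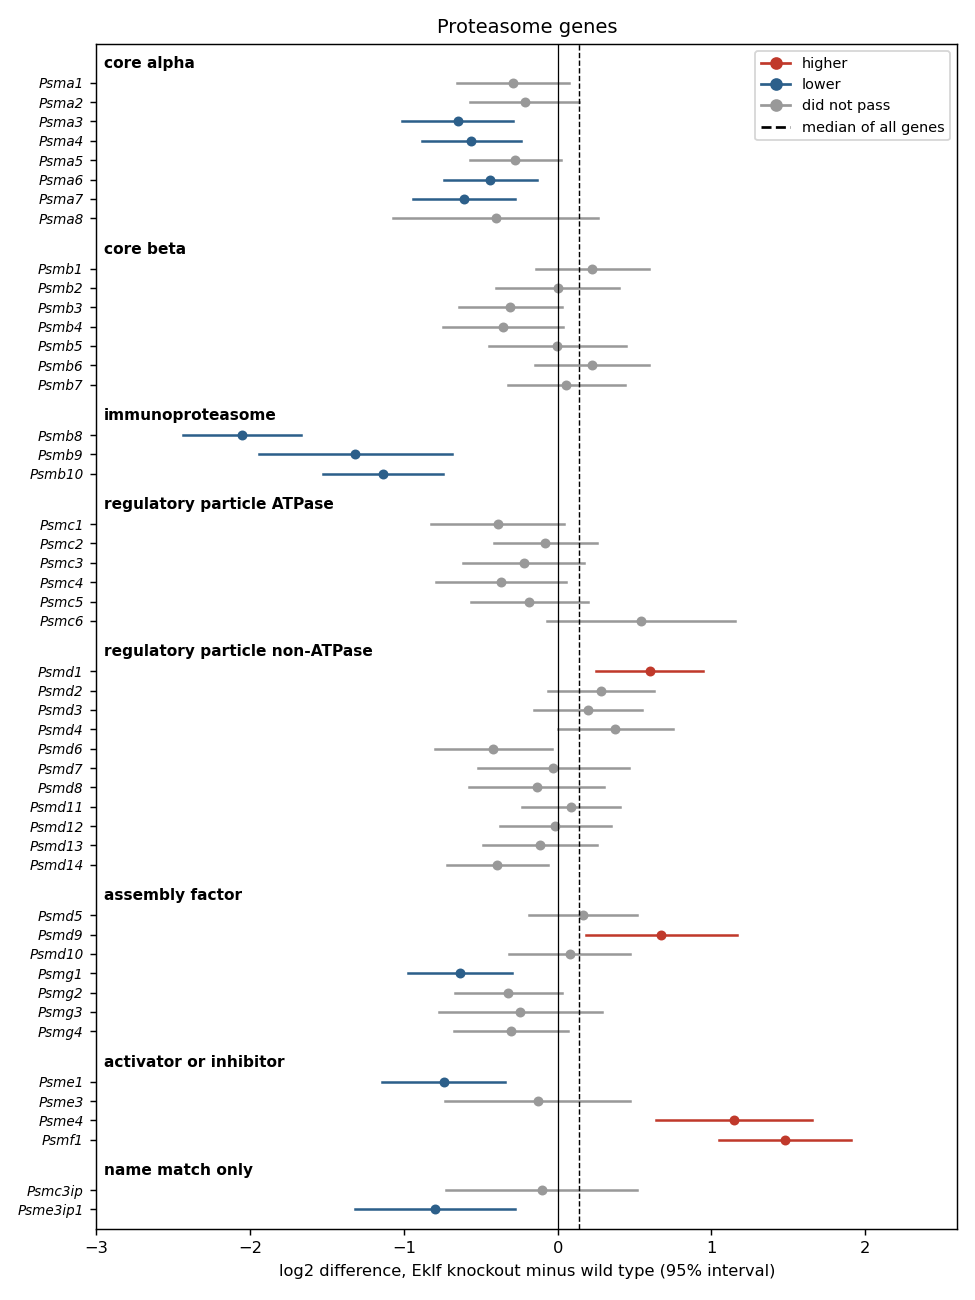
The plot gives the log2 difference, knockout minus wild type, of each of the 48 tested proteasome genes by role, with its 95% interval from limma (3 arrays per genotype). The interval of every immunoproteasome gene lies below 0, those of Psme4 and Psmf1 lie above 0, and most other points lie between -0.65 and 0.60. The dashed line is the median of all genes, 0.14.

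Among 8 alpha genes 4 fell, 0 rose and 4 missed the threshold. At the brightest probe set of each gene all 8 differences were below 0, from -0.65 to -0.21. The called share, 50%, was close to the 48.7% of all genes, and lower calls made up 20.8% of all genes and 35.3% of the brightest group. Psma3 had signals of 6213, 4843 and 4649 on the knockout arrays, against 7600, 8627 and 8238 on the wild-type arrays. Every knockout value was below every wild-type value, and the difference was -0.65 ± 0.16 (SE, limma adjusted p = 0.00914). Psma7 had 3254, 3216 and 3006 on the knockout arrays and 4304, 4842 and 5383 on the wild-type arrays, 1.53-fold lower (limma adjusted p = 0.00828). These groups did not overlap either. Psma4 had 5231, 4850 and 4935 on the knockout arrays, against 6708, 7345 and 8152 on the wild-type arrays (-0.56 ± 0.14, SE, limma adjusted p = 0.0106). Psma6 had 6559, 6875 and 6706 on the knockout arrays, against 8984, 8633 and 9672 on the wild-type arrays, a smaller difference of -0.44 ± 0.13 (SE, limma adjusted p = 0.0242). In both genes all knockout values lay below all wild-type values.

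These 4 calls depended on settings. The call of Psma6 was lost without knockout array 2 or 3 or wild-type array 1 or 2 (limma adjusted p 0.0596 to 0.0798), and those of Psma3, Psma4 and Psma6 were lost after cyclic loess (limma adjusted p 0.0566, 0.0552 and 0.160). With the mean of all probe sets the call of Psma7 was lost (limma adjusted p = 0.314), and Psma3 (0.81) and Psma6 (0.49) turned sign without passing. The call of Psma6 was also lost without the variance trend (limma adjusted p = 0.0580). A second, bright Psma7 probe set had 4166, 4343 and 4041 on the knockout arrays and 4315, 2797 and 3650 on the wild-type arrays. Its groups overlapped and it did not pass (0.24, limma adjusted p = 0.293). Psma3 has a second, dim probe set that was called the other way, at 195, 416 and 462 on the knockout arrays and 120, 165 and 16.7 on the wild-type arrays (2.28 ± 0.79, SE, limma adjusted p = 0.0439). Psma3 was the 1 member with probe sets called in both directions. On the log2 scale of the filter, the wild-type mean of its dim probe set lay under the filter signal of 98.6. That probe set passed the filter through its knockout signals. Of the alpha genes that did not pass, Psma1 gave -0.29, Psma2 -0.21 and Psma5 -0.28. A dim Psma1 probe set was called higher (1.01, limma adjusted p = 0.0286), and a second, bright one of Psma5 gave 0.07 and did not pass. Psma8, the alpha subunit of male germ cells, was dim, with means of 159 ± 35.7 on the knockout arrays and 208 ± 18.6 on the wild-type arrays (SD, n = 3), and did not pass at -0.40. It was called lower under the 3 other scalings, with differences of -1.14 (quantile), -1.16 (cyclic loess) and -1.22 (median centring) and limma adjusted p of 0.0150, 0.0127 and 0.00631.

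The beta subunits of the constitutive core gave no call at the brightest probe set of each gene. Of 7 tested beta genes 0 rose and 0 fell, where 48.7% of all genes were called, and the differences ran from -0.35 to 0.23. At an unadjusted p under 0.05, 0 of these 7 passed in limma. Psmb5, which cuts after hydrophobic residues, had 5943, 3832 and 5759 on the knockout arrays and 4775, 4694 and 5879 on the wild-type arrays, with a 95% interval of the difference from -0.45 to 0.45. Psmb6, which cuts after acidic residues, had 3937, 3173 and 3878 on the knockout arrays and 3045, 2780 and 3589 on the wild-type arrays (interval -0.14 to 0.59). Psmb7, which cuts after basic residues, had 11507, 11078 and 11450 on the knockout arrays and 9561, 9969 and 13597 on the wild-type arrays (interval -0.32 to 0.44). The groups overlapped for each of these 3 cutting subunits. Psmb1 (0.23), Psmb2 (-0.00), Psmb3 (-0.31) and Psmb4 (-0.35), which do not cut, did not pass. After quantile normalization Psmb1 (0.44, limma adjusted p = 0.0164) and Psmb6 (0.48, 0.0221) passed as higher, and both passed after cyclic loess too. Other probe sets of 2 genes were called in the fit over probe sets: a second, bright one of Psmb4 was lower (-0.75, limma adjusted p = 0.0280), and a dimmer one of Psmb1 was higher (1.27, limma adjusted p = 0.00246). Averaged over their probe sets, Psmb4 passed as lower (-0.55) and Psmb1 as higher (0.75).

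All 3 immunoproteasome subunits were lower on the knockout arrays. Among all genes 20.8% were called lower, and 25.2% had every knockout value below every wild-type value. Psmb8, which takes the place of Psmb5, had signals of 475, 458 and 582 on the knockout arrays, against 1945, 2106 and 2204 on the wild-type arrays. It was 4.15-fold lower, a difference of -2.05 ± 0.17 (SE, limma adjusted p = 2.97e-05). A second, dim Psmb8 probe set under the filter ran the same way, with 18.3, 8.4 and 5.2 on the knockout arrays and 177, 147 and 133 on the wild-type arrays. Psmb9, which takes the place of Psmb6, had 367, 301 and 584 on the knockout arrays, against 875, 873 and 1299 on the wild-type arrays. This was 2.49-fold lower (-1.32 ± 0.28, SE, limma adjusted p = 0.00453). Psmb10, which takes the place of Psmb7, had 977, 709 and 897 on the knockout arrays, against 1939, 1917 and 1773 on the wild-type arrays. It was 2.20-fold lower (-1.14 ± 0.17, SE, limma adjusted p = 0.00083). In none of the 3 genes did the groups overlap, and each passed in all 17 alternative fits, with differences from -3.04 to -0.96.

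**Figure D2:**
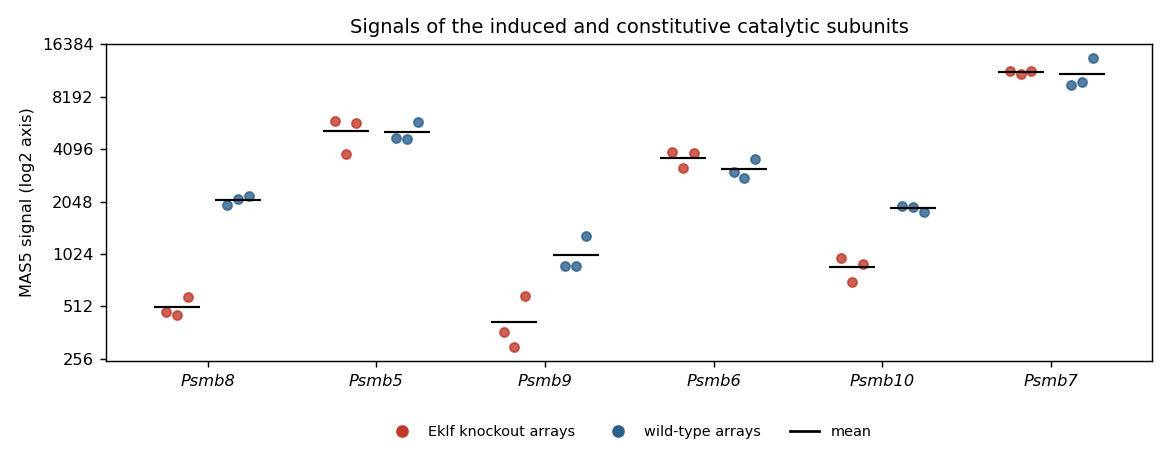
MAS5 signals (log2 axis) of the 3 induced cutting subunits, each beside the constitutive subunit it replaces, with 1 point per array and a bar at the mean of 3 arrays. Knockout points lie below all wild-type points for Psmb8, Psmb9 and Psmb10, and the groups overlap for Psmb5, Psmb6 and Psmb7.

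The transcripts of each pair can be compared within each array, where the ratio of 2 probe sets does not change with 1 scale factor per array. Its level has no meaning of its own, since probe sets differ in brightness per molecule, but its difference between the groups does. The log2 ratio of Psmb8 to Psmb5 was -3.65, -3.07 and -3.31 on the knockout arrays and -1.30, -1.16 and -1.42 on the wild-type arrays, a difference of -2.05. For Psmb9 to Psmb6 the ratio averaged -3.18 ± 0.39 on the knockout arrays and -1.65 ± 0.17 on the wild-type arrays (SD, n = 3), a difference of -1.54. For Psmb10 to Psmb7 it averaged -3.73 ± 0.21 on the knockout arrays and -2.54 ± 0.35 on the wild-type arrays (SD, n = 3), a difference of -1.19. The groups did not overlap in any of the 3 pairs. Psmb5, Psmb6 and Psmb7 did not pass, so these differences largely repeat those of Psmb8 (-2.05), Psmb9 (-1.32) and Psmb10 (-1.14) alone. The ratios are of RNA and do not measure the exchange of subunits in the proteasome. Whether both transcripts of a pair came from the same cells was not tested. An exact two-sided permutation test gave p = 0.1 for each pair and 0.1 after adjustment over the 3 pairs, the smallest p that 3 against 3 arrays allow.

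**Figure D3:**
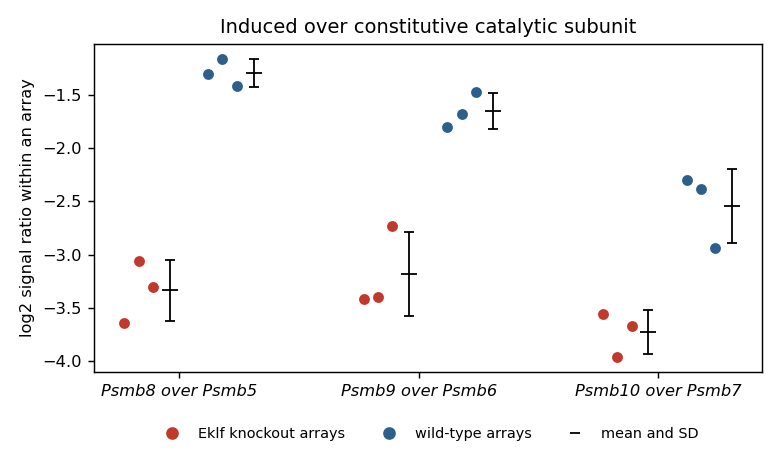
The log2 ratio of each induced cutting subunit to its constitutive counterpart within an array, with 1 point per array and the mean and SD of 3 arrays. All knockout ratios lie below all wild-type ratios in each pair, with mean differences of -2.05, -1.54 and -1.19.

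Most lymphoid and granulocyte markers were lower together with the immunoproteasome genes, while macrophage markers were mixed. The 11 lymphoid markers on the array, most of them of B cell precursors, summed to 1155 to 1706 on the knockout arrays and 23436 to 34682 on the wild-type arrays, and 8 of the 10 tested were lower and 1 was higher on the knockout arrays. None of them was at 0, but the knockout means of Cd79a (89.6), Vpreb1 (52.2) and Rag1 (28.6) lay under the filter signal of 98.6. The 10 macrophage markers summed to 18960 to 24830 on the knockout arrays and 28768 to 33425 on the wild-type arrays, with 5 of 8 tested higher, among them C1qb (6.97-fold) and Mrc1 (5.40-fold), and Csf1r and Lyz2 lower. The 10 granulocyte markers had a median difference of -1.04, with 7 lower, 0 higher and 3 that did not pass. They summed to 97104 to 201511 on the knockout arrays and 184265 to 214502 on the wild-type arrays, so the sums overlapped. The part of these cells in the lower immunoproteasome signals was not tested.

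Promoter letters are shown for the 3 genes that were lower together and for Psmb5, the constitutive counterpart of Psmb8. They are the 250 bases before the start of the gene, from RefSeq on GRCm38.p6, 5′ to 3′ on the strand of the gene. Capitals mark matches, on either strand, to the 3 motifs described after them.
Psmb8, chr17:34197945-34198194, plus strand: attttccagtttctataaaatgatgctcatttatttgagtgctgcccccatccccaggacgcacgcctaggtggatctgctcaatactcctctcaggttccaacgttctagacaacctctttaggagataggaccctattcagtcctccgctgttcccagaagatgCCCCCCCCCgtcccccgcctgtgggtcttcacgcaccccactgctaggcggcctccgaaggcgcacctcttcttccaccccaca
Psmb9, chr17:34187331-34187580, minus strand: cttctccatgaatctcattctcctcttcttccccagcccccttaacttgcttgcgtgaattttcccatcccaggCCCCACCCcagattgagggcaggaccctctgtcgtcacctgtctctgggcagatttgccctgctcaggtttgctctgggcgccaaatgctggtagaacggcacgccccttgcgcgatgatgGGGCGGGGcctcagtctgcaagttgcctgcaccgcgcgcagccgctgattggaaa
Psmb10, chr8:105938393-105938642, minus strand: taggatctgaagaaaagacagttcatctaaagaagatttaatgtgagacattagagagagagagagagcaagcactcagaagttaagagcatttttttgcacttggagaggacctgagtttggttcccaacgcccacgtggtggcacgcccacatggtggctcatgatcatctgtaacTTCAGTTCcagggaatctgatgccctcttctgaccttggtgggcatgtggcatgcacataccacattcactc
Psmb5, chr14:54617996-54618245, minus strand: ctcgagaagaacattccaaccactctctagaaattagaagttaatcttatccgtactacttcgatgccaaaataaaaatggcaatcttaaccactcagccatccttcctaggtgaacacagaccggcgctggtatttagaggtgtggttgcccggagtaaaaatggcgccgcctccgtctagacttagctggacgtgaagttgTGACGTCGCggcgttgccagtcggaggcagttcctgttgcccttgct

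Of the 49 genes 41 had a promoter in the RefSeq table. The first motif searched was TGACNNNGC, the core of the antioxidant response element to which Nrf1 and Nrf2 bind. The second was CCNCNCCC, a CACCC-type motif like that bound by Klf1, and the third was TTCNNTTC, a core of interferon-stimulated elements. Matches were counted on both strands, and matches to one motif could overlap matches to another. The antioxidant motif was found for 5 of the 41 genes (12.2%), Psmb5, Psmb6, Psmc6, Psmd12 and Psmd9, and for 11.5% of all 27025 genes in the table. In Psmb5 it spans bases -47 to -39 before the start. The CACCC-type motif was found for 19 of the 41 genes (46.3%) and for 48.5% of all genes. Psmb8 has 2 overlapping matches from base -84 to -76, Psmb9 has 2 separate ones, and none was found for Psmb10 or Psmb5. The interferon motif was found for 10 of the 41 genes (24.4%) and for 19.5% of all genes, with Psmb10 (bases -72 to -65) the 1 immunoproteasome gene among them. A match is a run of letters and not a binding site.

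Of 14 tested genes of interferon induction and peptide loading 6 fell, 1 rose and 7 did not pass, with a median of -0.35 beside 0.14 for all genes. The called share, 50%, was close to the 48.7% of all genes, of which 20.8% were lower and 27.9% higher. Tap1, a subunit of the transporter that carries proteasome peptides into the endoplasmic reticulum, had 112, 127 and 141 on the knockout arrays, against 603, 601 and 829 on the wild-type arrays, and was 5.31-fold lower (limma adjusted p = 8.62e-05). Tap1 lies between Psmb9 and Psmb8 on mouse chromosome 17, and Tap2, the other transporter subunit, lies on the far side of Psmb8. Tap2 was 1.70-fold lower (limma adjusted p = 0.0163). Irf8, an interferon regulatory factor of myeloid and B lineage cells, had 606, 538 and 705 on the knockout arrays, against 3297, 3151 and 4035 on the wild-type arrays, 5.67-fold lower (limma adjusted p = 1.47e-05). Ifngr1, the ligand-binding chain of the interferon gamma receptor, was 3.12-fold lower (limma adjusted p = 9.55e-05). Irf1, which induces immunoproteasome genes after interferon, did not pass at -0.21 ± 0.23 (SE, limma adjusted p = 0.475). Tapbp, which holds the MHC class I molecule at the transporter, was 2.07-fold lower (limma adjusted p = 0.00318). Stat2, which carries the signal of type I interferons, rose by 0.90 (limma adjusted p = 0.00881).

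The regulatory particle gave 1 call among 17 genes (5.88%), against 48.7% of all genes and 50.4% of the brightest group. Of the 6 ATPases 0 rose and 0 fell, with differences from -0.39 (Psmc1) to 0.54 (Psmc6). At an unadjusted p under 0.05, 0 of the 6 passed in limma. Psmc6 had 4654, 4757 and 4691 on the knockout arrays and 4457, 3827 and 1965 on the wild-type arrays. Its groups did not overlap, wild-type array 3 lay far below the other values, and it did not pass (limma adjusted p = 0.123), though it did without wild-type array 1. The other tested probe sets of Psmc6 gave 0.01 and 0.16, with overlapping groups, and did not pass. Of the 11 other subunits 1 rose, 0 fell and 10 did not pass, with a median of -0.02. Psmd1, the large scaffold subunit of the base, had 5338, 4156 and 4938 on the knockout arrays, against 3230, 3377 and 2896 on the wild-type arrays. It rose by 0.60 ± 0.16 (SE, limma adjusted p = 0.0116), with no overlap of the groups, and its difference was -0.22 after median centring.

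Several other regulatory particle genes were near the threshold. Psmd14, the enzyme that cuts the ubiquitin chain from the substrate, had 5649, 5294 and 4613 on the knockout arrays and 6582, 7283 and 6497 on the wild-type arrays. Its groups did not overlap, and it missed the threshold at -0.39 ± 0.15 (SE, limma adjusted p = 0.0503). It passed as lower in 4 of 17 alternatives. Psmd6, another lid subunit, gave -0.42 ± 0.17 (SE, limma adjusted p = 0.0655), and its other probe set was called lower at -1.93. On that probe set knockout array 2 gave 353, against 2443 and 1379 on the other 2 knockout arrays and 3850 to 4372 on the wild-type arrays. Psmd4, a ubiquitin receptor, gave 0.38 ± 0.17 (SE, limma adjusted p = 0.0863) and Psmd2, the other scaffold subunit, 0.28 ± 0.15 (SE, limma adjusted p = 0.153). Each passed as higher after quantile normalization and after cyclic loess. Psmd3, Psmd7, Psmd8, Psmd11, Psmd12 and Psmd13, structural and lid subunits, had differences between -0.14 and 0.20 and did not pass. Psmd3 too passed as higher after quantile normalization (0.45, limma adjusted p = 0.0317) and cyclic loess (0.43, limma adjusted p = 0.0417). In the fit over probe sets 2 other probe sets of Psmd11 (0.58 and 1.05), 1 of Psmd7 (1.41) and 1 of Psmd4 (0.96) were called higher. All but the first of these had mean signals under 500, where all probe sets had a median of 0.72 and 5594 of 15621 were higher. The Psmd7 probe set had wild-type signals of 95.6, 81.1 and 68.2, under the filter signal of 98.6. It passed the filter through its knockout signals of 216, 199 and 229.

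Of 7 assembly factors 1 was higher and 1 lower, a called share of 28.6%. Of all genes 48.7% were called, 27.9% higher and 20.8% lower. Psmg1, which with Psmg2 builds the alpha ring, had 2035, 1686 and 1674 on the knockout arrays, against 2722, 2840 and 2775 on the wild-type arrays. The groups did not overlap and the difference was -0.63 ± 0.15 (SE, limma adjusted p = 0.00757), a call lost after quantile normalization and cyclic loess (limma adjusted p = 0.0545 and 0.0523). Psmd9, a chaperone of the ATPase ring, had 1081, 1250 and 1181 on the knockout arrays, against 598, 656 and 1001 on the wild-type arrays, 0.67 ± 0.22 (SE, limma adjusted p = 0.0292). Wild-type array 3 was close to the knockout values, and the call was lost without knockout array 2 or 3 or wild-type array 1 or 2 (limma adjusted p 0.0779 to 0.112). Psmg2 (-0.32), Psmg3 (-0.24) and Psmg4 (-0.30), which act on the same ring, did not pass, nor did the ATPase chaperones Psmd5 (0.17) and Psmd10 (0.08). Psmg2 had 1997, 1636 and 1624 on the knockout arrays and 2038, 2275 and 2229 on the wild-type arrays. Psmg3 had 1127, 649 and 1002 on the knockout arrays, against 1189, 885 and 1151 on the wild-type arrays. Psmg4 had 1205, 1044 and 1062 on the knockout arrays, against 1222, 1354 and 1518 on the wild-type arrays. At the brightest probe set of each gene the groups overlapped for Psmg3 alone among these 3. A second Psmg2 probe set gave 0.19 with overlapping groups and did not pass. Another, dim one had 216, 253 and 269 on the knockout arrays and 92, 131 and 76.5 on the wild-type arrays. It was called higher in the fit over probe sets (1.33, limma adjusted p = 0.0141). Its wild-type mean on the log2 scale lay under the filter signal of 98.6, and it passed the filter through its knockout signals.

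Transcripts of the proteins that cap or block the core moved in opposite directions. Of 4 tested genes 2 were higher and 1 lower, a called share of 75%. Of all genes 48.7% were called, 27.9% higher and 20.8% lower. Psme1, a subunit of the interferon-inducible cap PA28, had 3842, 4085 and 3886 on the knockout arrays, against 5602, 6043 and 8419 on the wild-type arrays. It was 1.67-fold lower (-0.74 ± 0.18, SE, limma adjusted p = 0.00801), with no overlap. The probe set shared by Psme2 and Psme2b ran the same way and was not tested as a gene, with 1924, 1962 and 1864 on the knockout arrays and 2794, 2793 and 3504 on the wild-type arrays (-0.65). Psme3, the nuclear relative of Psme1, had 2776, 1380 and 1769 on the knockout arrays and 1800, 1829 and 2693 on the wild-type arrays. Its groups overlapped (-0.13 ± 0.27, SE, limma adjusted p = 0.708), while its second probe set was called higher at 0.67.

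Psme4 and Psmf1 were the members with the largest increases. Psme4, the cap PA200, had 4790, 5488 and 5510 on the knockout arrays, against 2913, 2805 and 1631 on the wild-type arrays, 2.22-fold higher (1.15 ± 0.23, SE, limma adjusted p = 0.00307). All 4 of its probe sets above the filter were called higher, from 1.07 to 1.86. Psmf1, the regulator PI31 that inhibits the core in the test tube, had 2313, 2806 and 2772 on the knockout arrays, against 863, 810 and 1188 on the wild-type arrays. It was 2.79-fold higher (1.48 ± 0.19, SE, limma adjusted p = 0.000312), 3 of its 4 probe sets were called higher, and the other gave 0.28. In neither gene did the groups overlap. Both were above 0 under all 4 scalings and did not pass after median centring, where the median of all genes was -0.68. There Psme4 gave 0.33 (limma adjusted p = 0.269) and Psmf1 0.66 (limma adjusted p = 0.0651). The 13 hepatocyte markers on the array summed to 135857 to 208449 on the knockout arrays and 9341 to 9954 on the wild-type arrays, and the 9 megakaryocyte markers to 34757 to 45021 on the knockout arrays and 8009 to 9324 on the wild-type arrays. Their part in the higher members was not tested. The name matches lie outside the proteasome: Psmc3ip did not pass (-0.10), and Psme3ip1 fell by 0.79 (limma adjusted p = 0.0191), which was lost without knockout array 1 or 3 (limma adjusted p = 0.0559 and 0.0526) and after quantile normalization or cyclic loess.

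**Figure D4:**
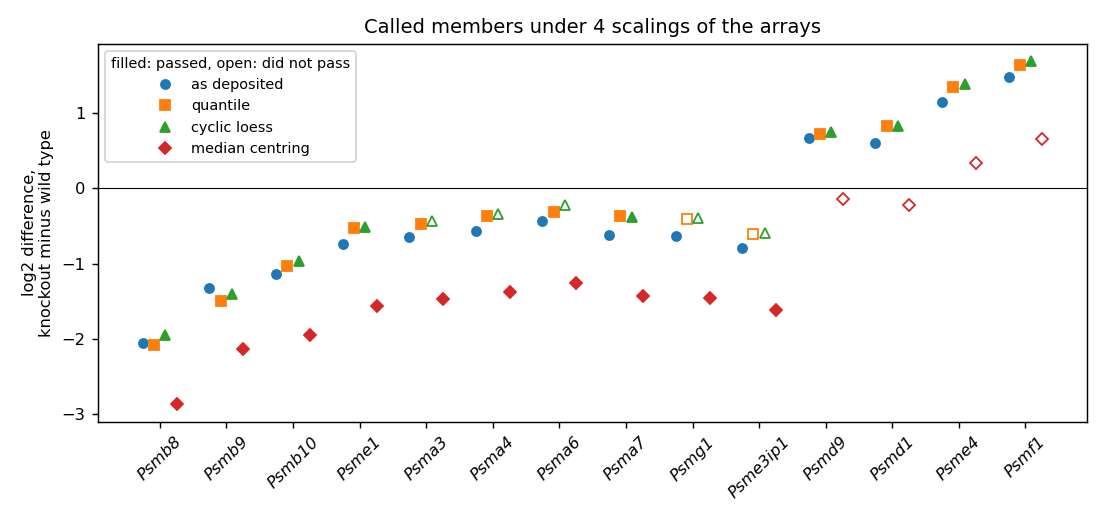
The log2 difference, knockout minus wild type, of the 14 called members as deposited and under 3 other scalings of the arrays, with filled marks where limma's adjusted p was under 0.05. At the brightest probe set of each gene, Psmb8, Psmb9, Psmb10, Psme1 and Psma7 were called lower under all 4 scalings. Psmd1 and Psmd9 lie below 0 after median centring.

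Probe sets of a gene often differed, and the differences went with brightness. Of the 87 proteasome probe sets above the filter 19 were higher and 13 lower, beside 28.1% higher and 15.7% lower (43.8% called) among all 27023 probe sets tested. Groups did not overlap for 21 with the knockout above and 21 with it below, against 57.6% of all probe sets, 37.5% above and 20.1% below. The 20 proteasome probe sets with a mean signal under 500 had a median difference of 0.98, with 10 higher and 0 lower (50% called). All 15621 probe sets of that brightness had a median of 0.72, with 5594 higher and 1116 lower (43.0% called). The 44 proteasome probe sets with a mean signal over 2000 had a median of -0.14, with 5 higher and 9 lower (31.8% called). All 3223 such probe sets had a median of -0.21, with 502 higher and 1046 lower (48.0% called). Of 22 genes with several tested probe sets 10 had differences on both sides of 0. The gene results above use the brightest probe set of each gene, and with the mean of all probe sets 11 members were higher and 9 lower. With that mean 44.4% of all genes were called, 65.4% of them higher.

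**Figure D5:**
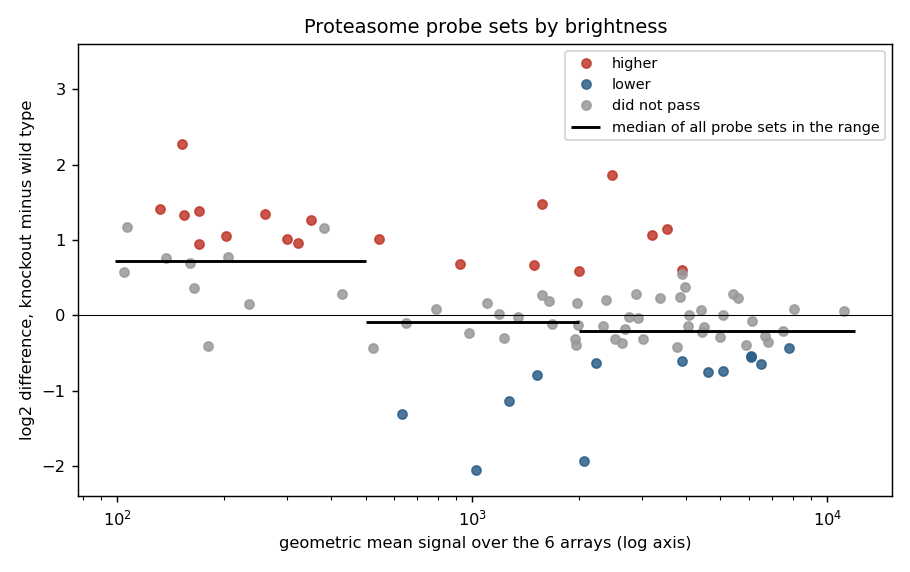
The log2 difference, knockout minus wild type, of the 87 proteasome probe sets above the filter against their geometric mean signal (log axis). Black bars are medians of all probe sets in 3 ranges of signal, at 0.72, -0.09 and -0.21. The dim proteasome probe sets lie mostly above 0, and some of them passed the filter through their knockout signals.

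The factors that set the transcription of proteasome genes showed no call for Nfe2l1 and Nfe2l2. Nfe2l1, which encodes Nrf1, the activator of proteasome genes when proteasome activity falls, had 1126, 1125 and 1026 on the knockout arrays and 958, 956 and 1065 on the wild-type arrays (0.14 ± 0.16, SE, limma adjusted p = 0.488). Nfe2l2, which encodes Nrf2, the regulator of antioxidant genes, had 2798, 2261 and 2211 on the knockout arrays and 3036, 2726 and 2973 on the wild-type arrays (-0.27 ± 0.16, SE, limma adjusted p = 0.172). Both pairs of groups overlapped. Of 9 tested genes of this list 3 rose (33.3%, near the 27.9% of all genes that were higher) and 0 fell: Maf by 1.68, and the small Maf proteins Mafg by 0.73 and Mafk by 0.55, the partners with which Nrf1 and Nrf2 bind DNA (limma adjusted p 0.000456, 0.00865 and 0.0218).

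Of 9 tested genes of other parts and factors 2 fell (22.2%, near the 20.8% of all genes that were lower), 0 rose and 7 did not pass. Pomp, the maturation protein of the core, had 5008, 4194 and 4150 on the knockout arrays, against 6147, 5659 and 8013 on the wild-type arrays (-0.56 ± 0.17, SE, limma adjusted p = 0.0249). Uchl5, a deubiquitinating enzyme of the regulatory particle, had 2434, 1922 and 1793 on the knockout arrays, against 5283, 5114 and 2789 on the wild-type arrays, 2.08-fold lower (limma adjusted p = 0.0081). The groups did not overlap in either gene. Of 10 tested genes of ubiquitin supply and delivery 2 fell (20%, again near that share), 0 rose and 8 did not pass, and the members that fell were the shuttle proteins Ubqln4 (-0.81) and Ubqln2 (-0.64).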

How the data were processed

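The authors deposited 1 linear intensity per probe set and array, and the submitters' processing notes name MAS5 and Affymetrix Expression Console without versions. Each array had the same mean, 500, once its top and bottom 2% were trimmed, so each signal is relative to the other signals of its array. Probe sets took the platform annotation's gene where it listed 1 (34958 of 45101), and 34754 took the symbol of that gene in RefSeq, changed or not. Signals under 1 were set to 1 before log2. A gene's value is its probe set of highest mean log2, and genes below the 40th percentile of all probe sets (signal 98.6) were left out. The fit used limma 3.58.1 (R 4.3.3, lmFit, eBayes with trend), two-sided, on all genes or all probe sets, and was tested on simulated data.

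Precision is limited by 3 arrays per genotype. The labels call the RNA samples independent and say no more of their origin, so p-values measure the spread between these samples. Members, lists and motifs were chosen with earlier results of these data known. Any member could be named. Other pathway genes named are up to 4 per list with the smallest p among those called, plus Pomp, Nfe2l1, Nfe2l2, Irf1 and Tap1. Tap2 and Stat2 were named after their values were seen. Alternatives were 3 other scalings, offsets of 16 and 64, no filter or one at the 60th percentile, no variance trend, array weights, the mean of probe sets, a replicate block, a threshold of 0.01 and each array left out in turn.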

Additional observations from a re-analysis of the deposited data

How the results depend on the processing

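Counts of members moved with the scaling. Median centring gave 0 higher and 38 lower genes (1 higher and 45 lower probe sets), with a median of all genes of -0.68. Quantile normalization gave 9 higher and 9 lower genes, and cyclic loess 9 higher and 6 lower (6 lower probe sets). Of all genes they called 38.8% and 38.7%, and 44.8% and 46.3% of those calls were higher. Array weights gave 7 higher and 14 lower genes, the mean of probe sets 11 higher, and a threshold of 0.01 gave 2 higher and 7 lower genes (5 higher and 3 lower probe sets). With array weights 58.1% of all genes were called, and with the mean of probe sets 44.4%. Leaving out 1 array gave 3 to 7 higher and 8 to 12 lower genes, and 10 to 19 higher and 8 to 16 lower probe sets, with 10 higher and 8 lower without knockout array 2 or 3. In these fits 38.1% to 48.6% of all genes were called. With a replicate block 4 genes were higher and 10 lower, and 17 probe sets were higher and 13 lower. That fit called 49.0% of all genes. Deviations of same-numbered arrays correlated at 0.081, 0.036 and 0.090, so the numbers are not taken as pairing the arrays. The within-array difference of Psmb8 over Psmb5 was -3.03 with the mean of probe sets, and that of Psmb9 over Psmb6 was -1.98 after quantile normalization. Leaving out 1 array gave -2.19 to -1.90 for Psmb8 over Psmb5, -1.77 to -1.42 for Psmb9 over Psmb6 and -1.39 to -1.07 for Psmb10 over Psmb7. After median centring the sign turned for Psmb7 (-0.76), Psmd1 (-0.22), Psmd10 (-0.74), Psmd11 (-0.73), Psmd5 (-0.65) and Psmd9 (-0.14). With the mean of probe sets it turned for Psma3 (0.81), Psma6 (0.49), Psmc1 (0.74), Psmc2 (0.44), Psmd7 (0.71) and Psme3 (1.29). Over 815 combinations of a member and an alternative a call was lost in 21 and gained in 57, of which 24 came from median centring. A sign turned without a call on either side in 57 more, and the causes were not tested. Detection calls were not used, so dim probe sets may lie near background.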
